A study of Mus musculus with 11 samples.

Results

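Zymogen granules are the storage vesicles of the pancreatic acinar cell, and 6 genes for proteins of the granule membrane or its soluble content were followed here across maternal diet and streptozotocin (STZ) injection. The genes were taken by name (Gp2, Zg16, Cuzd1, Spink1, Sycn and Rab3d), with every probe set that carries their symbol. That gave 12 of 45101 probe sets, and each of the 6 genes was among the 15897 genes tested. Rab3d had 4 probe sets, Zg16 3, Sycn 2, and Gp2, Cuzd1 and Spink1 1 each. Whole pancreas of Balb/C daughters aged 30 days was measured on 11 Affymetrix arrays. Dams ate 20% protein (control) or an isocaloric diet with 8% protein (low protein) while pregnant, and every dam had the control diet from the birth on. The daughters were injected daily on days 1 to 5 of life with STZ at 35 mg per kg, which kills insulin-producing β cells, or with vehicle (sham). Each group had 3 arrays, except that control STZ had 2 (replicates 1 and 3), the others being control sham, low protein sham and low protein STZ. The labels call the arrays biological replicates and name no dam or litter, so litter and maternal diet cannot be told apart. In whole tissue, fewer acinar cells and less RNA per acinar cell cannot be told apart either.

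Acinar cells pack digestive enzyme precursors into zymogen granules, carry them to the apical membrane and release them when food or a hormone calls for secretion. GP2 is the most abundant glycoprotein of the granule membrane and is anchored there by a lipid. ZG16, a lectin, and syncollin (Sycn) sit at the inner face of that membrane, where sorting of cargo and granule maturation take place. CUZD1 is a granule protein with CUB and zona pellucida domains, the latter a feature it shares with GP2. SPINK1 is a trypsin inhibitor packed with the zymogens and keeps early activated trypsin in check. RAB3D is a small GTPase on the outer face of the granule that takes part in its maturation and exocytosis.

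Promoter sequences are shown as a description. In the deposited values Gp2, Cuzd1 and Sycn were lower in low protein arrays with no overlap between diets, whereas Rab3d overlapped. Rab3d averaged 11.64, and the others over 14. Of the 62 genes averaging over 14, 67.7% were lower without overlap in low protein sham arrays. After cyclic loess scaling between arrays, Gp2 (0.089), Sycn (0.19) and Rab3d (0.049) had positive diet differences in sham animals, and Cuzd1 (-0.018) did not. Whether promoters bear on the diet difference was not tested. The promoter set used here (GRCm38.p6) held an entry for 4 of the 6 genes, without Zg16 and Spink1. The runs below are the 250 bases before the start site, 5′ to 3′ on the gene's strand. They lie at chr7:119459273-119459522 for Gp2 (minus strand), chr7:131322293-131322542 for Cuzd1 (minus strand), chr7:28540635-28540884 for Sycn (plus strand) and chr9:21918184-21918433 for Rab3d (minus strand). Capitals mark matches, on either strand, to CANNTG (the E-box of bHLH factors such as PTF1A and BHLHA15), TGGGAA (the core bound by RBPJ and RBPJL), AAGGTCA (the half-site of NR5A2) or TATAAA. No matches overlapped in these runs.
Gp2: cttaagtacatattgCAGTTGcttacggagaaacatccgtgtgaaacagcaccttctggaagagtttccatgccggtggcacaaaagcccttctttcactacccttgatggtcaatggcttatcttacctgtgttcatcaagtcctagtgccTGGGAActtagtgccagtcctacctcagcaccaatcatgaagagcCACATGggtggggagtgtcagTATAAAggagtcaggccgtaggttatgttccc
Cuzd1: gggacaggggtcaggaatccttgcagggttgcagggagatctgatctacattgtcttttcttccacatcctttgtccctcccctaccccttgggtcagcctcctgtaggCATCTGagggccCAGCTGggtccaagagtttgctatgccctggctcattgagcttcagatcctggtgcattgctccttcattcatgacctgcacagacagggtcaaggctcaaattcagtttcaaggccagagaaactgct
Sycn: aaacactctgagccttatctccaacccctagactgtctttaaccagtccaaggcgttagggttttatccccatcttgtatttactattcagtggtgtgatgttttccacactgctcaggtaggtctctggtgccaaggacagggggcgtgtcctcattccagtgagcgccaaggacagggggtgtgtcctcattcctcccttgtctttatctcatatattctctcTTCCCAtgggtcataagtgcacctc
Rab3d: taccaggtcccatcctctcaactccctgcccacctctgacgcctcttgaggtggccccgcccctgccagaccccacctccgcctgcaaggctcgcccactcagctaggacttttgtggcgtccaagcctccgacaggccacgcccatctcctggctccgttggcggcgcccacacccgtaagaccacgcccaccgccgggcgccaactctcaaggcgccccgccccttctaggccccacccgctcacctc
Gp2 held TATAAA at -32, an E-box at -53 and another at -235, and TGGGAA at -98, counted from the start site to the first base of the match. Cuzd1 held E-boxes at -141 and -129. Sycn held TGGGAA on the opposite strand at -25 and no E-box. It also carried the 15-base run gccaaggacaggggg at both -119 and -83. Rab3d held none of the 4 motifs. Among 32851 promoters of the same length, 66.2% held CANNTG, 21.6% TGGGAA, 12.4% TATAAA and 4.08% AAGGTCA. The Rab3d promoter had a GC content of 69.2% and 18 CpG dinucleotides, against 48.4% and 4 for Gp2, 53.2% and 0 for Cuzd1, and 49.2% and 3 for Sycn. The median promoter had a GC content of 52.4% and 6 CpG. A match is a description of letters and does not show binding.

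The values are log2 signals per probe set as deposited, so a difference of 1 is a doubling. Array medians lay between 7.92 and 7.97, while the SD over all probe sets of an array ran from 1.52 to 1.67. Correlations between arrays were 0.983 to 0.995 within groups and 0.978 to 0.994 between them. Acinar identity was clear, with 9 of 10 markers tested and Cpa1, Cel, Ctrb1 and Cela1 averaging between 15.31 and 15.51. Goblet cells also make ZG16, and intestinal and goblet cell markers (6 of 8 tested, with Fabp2 and Clca1 too dim) averaged 8.32 to 8.48 per array. Gp2, Zg16, Cuzd1, Spink1 and Sycn averaged 15.15, 15.37, 14.66, 14.44 and 15.40, above at least 99.8% of probe sets, and the highest value of any probe set lay between 15.85 and 15.91 on each array. Such probe sets lie close to the upper end of the scale, where a change in RNA can be understated. Rab3d averaged 11.64 with its brightest probe set.

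Sham animals of the diets were compared to see what protein restriction before birth left in the exocrine pancreas weeks later. Gp2, Zg16, Cuzd1, Spink1 and Sycn were each lower in all 3 low protein sham arrays than in all 3 control sham arrays, by 1.35-fold to 1.49-fold. Rab3d was 1.13-fold lower, with groups that overlapped. No gene passed a Benjamini-Hochberg adjusted p of 0.05 in limma (0% of the 15897 tested). The direction depended on scaling: after cyclic loess scaling between arrays Gp2, Zg16, Sycn and Rab3d were higher in low protein sham arrays, as given further on.

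For the membrane glycoprotein gene Gp2, the control sham arrays read 15.54, 15.51 and 15.43 and the low protein sham arrays 15.03, 14.98 and 14.96. The groups were apart by far more than the spread inside either of them. The fitted log2 difference was -0.50 ± 0.13 SE (95% confidence interval -0.80 to -0.21, adjusted p = 0.214). Zg16, the granule lectin, read 15.68, 15.74 and 15.64 in control sham and 15.25, 15.22 and 15.18 in low protein sham arrays. Again no array of one diet reached those of the other, and the difference was -0.47 ± 0.11 (adjusted p = 0.209). The suffix of this probe set marks probes shared by several transcripts, so its signal may not be of Zg16 alone. Its other probe sets, the first with a suffix for probes that may cross-hybridise and the second with neither suffix, gave -0.47 ± 0.11 and -0.53 ± 0.13.

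Of the remaining content proteins, Sycn read 15.72, 15.73 and 15.65 in control sham and 15.32, 15.25 and 15.23 in low protein sham arrays. Its difference of -0.44 ± 0.11 (adjusted p = 0.212) compared with -0.48 ± 0.12 for its other probe set. Cuzd1 read 15.10, 14.98 and 15.05 against 14.56, 14.38 and 14.52. This was a difference of -0.56 ± 0.16 (adjusted p = 0.227), with a gap between the lowest control and the highest low protein array. The trypsin inhibitor Spink1 read 14.91, 14.84 and 14.64 in control sham and 14.33, 14.22 and 14.10 in low protein sham arrays. Spink1 had the most negative difference of the 6 genes in this contrast, -0.58 ± 0.15 (adjusted p = 0.209), although the intervals of the 5 bright genes overlapped widely.

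The vesicle GTPase gene Rab3d stood apart in its spread. Its brightest probe set read 12.04, 11.36 and 11.85 in control sham and 11.70, 11.40 and 11.64 in low protein sham arrays. Control sham 2 lay below every low protein sham array, and the difference was -0.17 ± 0.19 (95% confidence interval -0.58 to 0.24, adjusted p = 0.793). The interval reaches values as negative as those fitted for the other 5 genes, so a like change in Rab3d was not excluded. The value rested on single arrays, being -0.37 without control sham 2, -0.027 without control sham 1 and -0.081 without low protein sham 2. Whether Rab3d differed from the others was not tested.

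In count, 5 of 6 members were lower with no overlap between the arrays in sham animals, where 10.2% of all genes tested were. An unadjusted p under 0.05 with a lower level was reached by 5 of 6, against 7.22% of all genes, and 6 of 6 had a difference below 0, against 57.7%. The median over the members was -0.49 and over all genes -0.02. The median difference was more negative in brighter classes of genes, however, from 0.0059 in genes averaging up to 8 to -0.37 in those at 12 to 14. The 5 bright members belong to the brightest 62 genes, those averaging over 14. Of these 62 genes, 67.7% were lower in low protein sham arrays with no overlap, and their median difference was -0.44. In that class Spink1 had the 13th and Cuzd1 the 17th most negative difference, Gp2 the 22nd, Zg16 the 25th and Sycn the 34th. The distance from the class median ran from -0.14 for Spink1 to 0.0063 for Sycn. Rab3d, at -0.17, compared with a median of -0.105 over the 2056 genes averaging 10 to 12.

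**Figure D1:**
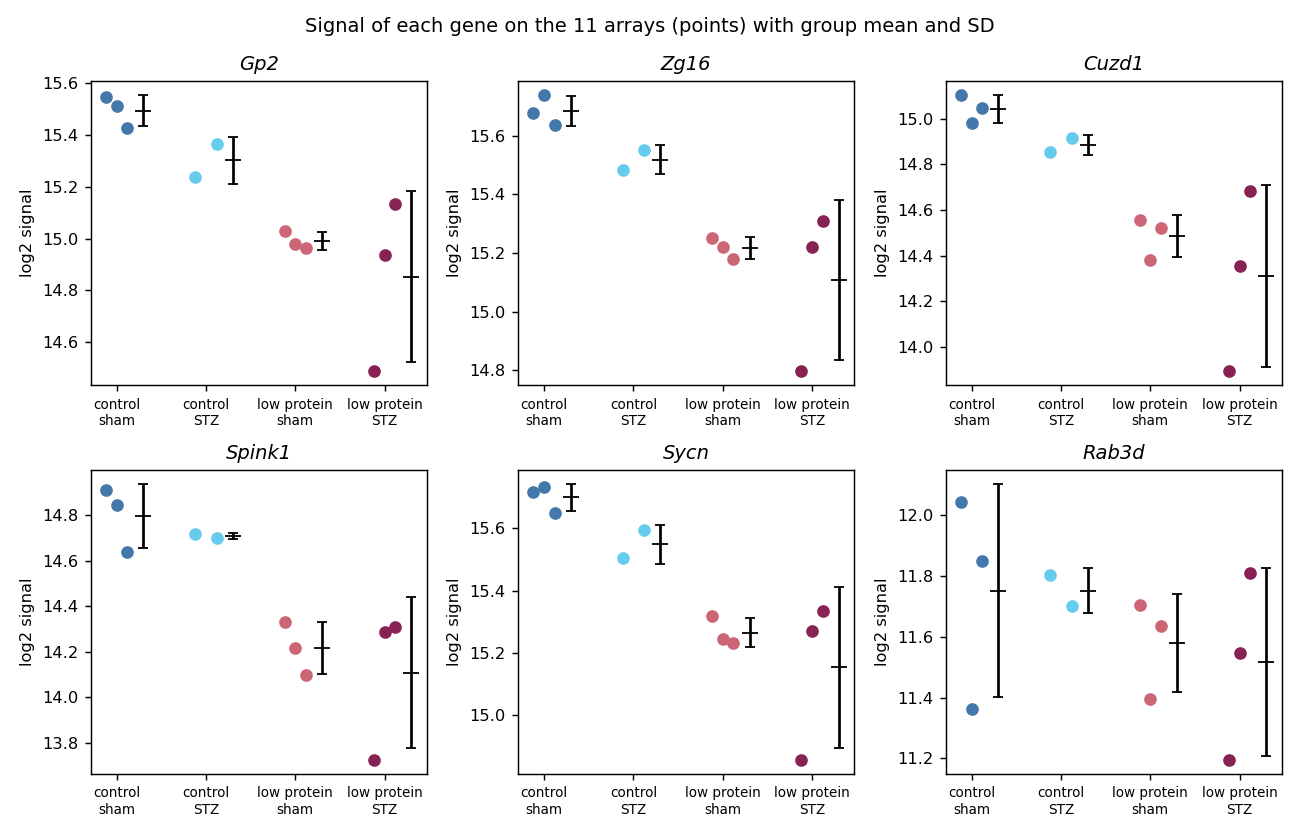
Log2 signal (vertical axis) of the brightest probe set of each gene in the 4 groups (horizontal axis). Points are single arrays in the order of their replicate numbers, and the black bar beside them gives the group mean and SD. Gp2, Zg16, Cuzd1, Spink1 and Sycn show low protein arrays below all control arrays, whereas the Rab3d groups overlap.

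Among STZ animals the 6 genes also read lower under low protein in the deposited values, whereas after cyclic loess scaling all 6 were higher, from 0.053 for Spink1 to 0.38 for Sycn. Gp2 read 15.24 and 15.37 in control STZ and 14.49, 14.94 and 15.14 in low protein STZ arrays, a difference of -0.45 ± 0.15 (adjusted p = 0.39). Spink1 read 14.72 and 14.70 against 13.73, 14.29 and 14.31, a difference of -0.60 ± 0.16 (adjusted p = 0.348). In both genes every low protein array lay below the control arrays, and low protein STZ 1 lay lowest by a wide margin. Cuzd1 read 14.85 and 14.91 against 13.89, 14.35 and 14.68 (-0.57 ± 0.18, adjusted p = 0.376). Zg16 read 15.48 and 15.55 against 14.80, 15.22 and 15.31 (-0.41 ± 0.13, adjusted p = 0.376). Sycn read 15.50 and 15.59 against 14.85, 15.27 and 15.33 (-0.40 ± 0.12, adjusted p = 0.376). These 3 genes repeated the order of the arrays, with no overlap between diets. Rab3d read 11.80 and 11.70 against 11.20, 11.55 and 11.81, so that low protein STZ 3 was the highest of these arrays, and the difference was -0.23 ± 0.21 (adjusted p = 0.775). Of the 6 genes, 5 were lower with no overlap, where 16.8% of all genes were, and 5 had an unadjusted p under 0.05, where 7.79% were lower at that level. Among the 62 brightest genes the share without overlap was 67.7% here too, and their median was -0.39. After cyclic loess scaling 0 of the 6 were lower without overlap, and the share of all genes was not counted there. Without low protein STZ 1 the differences were -0.27 for Gp2, -0.25 for Zg16, -0.37 for Cuzd1, -0.41 for Spink1, -0.25 for Sycn and -0.073 for Rab3d, and 0 passed with or without it. Rab3d was at -0.38 without low protein STZ 3.

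Averaged over sham and STZ animals (6 low protein and 5 control arrays), the low protein diet gave -0.59 ± 0.11 for Spink1 (95% confidence interval -0.83 to -0.35) and -0.57 ± 0.12 for Cuzd1. Gp2 differed by -0.48 ± 0.10, Zg16 by -0.44 ± 0.09, Sycn by -0.42 ± 0.08 and Rab3d by -0.20 ± 0.14. For the 5 genes other than Rab3d, the highest of 6 low protein arrays was under the lowest of 5 control arrays. The share of all genes, or of the 62 brightest, with this pattern was not counted, so it has no background to be read against. Within sham and within STZ animals, 67.7% of the 62 brightest genes were lower without overlap. Spink1 had an adjusted p of 0.0574, Zg16, Cuzd1 and Sycn of 0.0585 each, Gp2 of 0.0617 and Rab3d of 0.532. After cyclic loess scaling the averaged differences were 0.19 for Gp2, 0.25 for Zg16, 0.28 for Sycn, 0.045 for Cuzd1, 0.066 for Rab3d and -0.0064 for Spink1. In the deposited values none of the 6 passed, nor did any other gene (0%), and 11.7% of all genes were lower at an unadjusted p under 0.05. In the same contrast the 62 brightest genes had a median of -0.42.

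Low protein STZ 1 bears on these calls, which are from the deposited values. Without it, Gp2, Zg16, Cuzd1, Spink1 and Sycn passed for diet in sham animals (adjusted p of 0.0194 to 0.0292), where 126 genes passed in all. That array is in neither sham group, so the sham differences kept their values and only the errors fell. For Gp2 the difference stayed at -0.50 and its SE went from 0.13 to 0.078. How many of the 62 brightest genes passed was not counted. The 5 genes also passed averaged over injections without that array (adjusted p of 0.0212 to 0.0246, 161 genes in all), with smaller differences of -0.34 for Sycn to -0.49 for Spink1. Without low protein STZ 3 the same 5 passed averaged over injections (adjusted p = 0.0259 each, 460 genes in all), and without low protein STZ 2 Spink1 alone of the members did (adjusted p = 0.0478, 89 genes in all). Without control sham 2, 102 genes passed averaged over injections, and without control sham 3, 5 genes did, with 0 members in either case. With weights estimated per array, which count a deviating array less, the 5 genes passed as well (adjusted p = 0.0194 each, 796 genes in all).

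**Figure D2:**
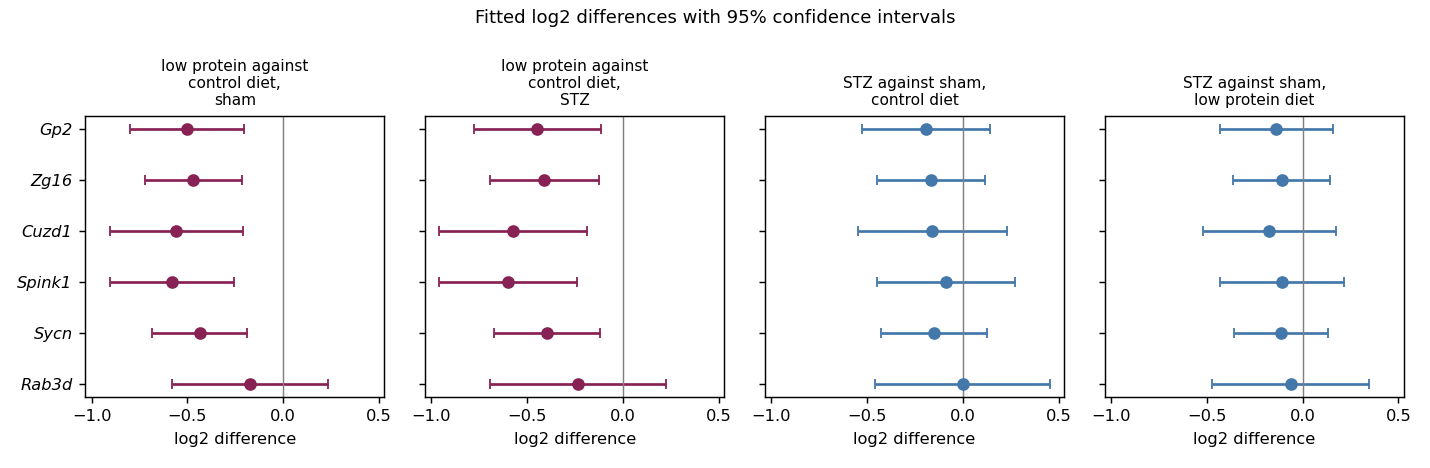
Fitted log2 differences (horizontal axis) of the 6 genes (vertical axis) in the diet contrast within sham and within STZ animals and in the STZ contrast within each diet, with 95% confidence intervals. Both diet panels place 5 genes between -0.60 and -0.40 with intervals that leave out 0, and each STZ interval spans 0.

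No difference between STZ and sham arrays passed, and cyclic loess scaling turned Spink1 and Rab3d in the control diet and all 6 genes in the low protein diet. In offspring of control dams, Gp2 differed by -0.19 ± 0.15, Zg16 by -0.17 ± 0.13, Cuzd1 by -0.16 ± 0.18, Sycn by -0.15 ± 0.12 and Spink1 by -0.09 ± 0.16 after STZ. Rab3d differed by -0.0006 ± 0.21. Each adjusted p was 0.999 or more, and each 95% confidence interval spanned 0, reaching from -0.52 to 0.14 for Gp2. The STZ arrays were both under the lowest sham array for Gp2, Zg16, Cuzd1 and Sycn, that is 4 of 6 members, where 7.72% of all genes and 46.8% of the 62 brightest genes did. Spink1 and Rab3d overlapped between sham and STZ. In the same animals Ins2, the insulin gene that reports the target cells of the toxin, was at -1.72 ± 0.31.

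In offspring of protein-restricted dams the STZ arrays overlapped the sham arrays for each of the 6 genes (0 of 6 lower without overlap, 5.14% of all genes). Differences were -0.18 ± 0.16 for Cuzd1, -0.14 ± 0.13 for Gp2, -0.11 ± 0.11 for Sycn and for Zg16, -0.11 ± 0.15 for Spink1 and -0.06 ± 0.19 for Rab3d, each with an adjusted p of 1. All turned positive without low protein STZ 1, lying between 0.03 for Cuzd1 and 0.10 for Rab3d. That array read below the other low protein arrays in all 6 genes. For Gp2 the other STZ arrays of this diet, at 14.94 and 15.14, lay on either side of the sham arrays, at 14.96 to 15.03. Without low protein STZ 3, 2 of the 6 genes were lower with no overlap. The share of all genes was not counted without that array, so this count has no background to be read against.

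The interaction took the STZ difference under low protein and subtracted the one under control diet. The difference was 0.06 ± 0.20 for Gp2, 0.06 ± 0.17 for Zg16, 0.04 ± 0.17 for Sycn, -0.02 ± 0.24 for Cuzd1, -0.02 ± 0.22 for Spink1 and -0.06 ± 0.28 for Rab3d. Each was smaller than its error, with an adjusted p of 1. The intervals remain wide, from -0.39 to 0.50 for Gp2, so an interaction within that range was not excluded for this gene. Over the 4 groups together the moderated F-test gave an unadjusted p under 0.05 for 5 of 6 members, against 9.89% of all genes, with adjusted p from 0.191 to 0.21. Rab3d had an adjusted p of 0.893.

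The mean of the 5 bright genes was 15.28 to 15.39 in control sham, 15.16 to 15.23 in control STZ, 14.80 to 14.90 in low protein sham and 14.35 to 14.95 in low protein STZ arrays. Low protein STZ 1 was the lowest array for each probe set of Gp2, Zg16, Cuzd1, Spink1 and Sycn, and the highest was control sham 1 or 2. The spread of values on the array moved along with this level. The SD over all probe sets was 1.60 to 1.67 in control sham, 1.63 to 1.64 in control STZ, 1.58 to 1.60 in low protein sham and 1.52 to 1.62 in low protein STZ arrays, with low protein STZ 1 lowest and control sham 1 highest. Hybridisation controls, bacterial and phage transcripts added in fixed amounts, averaged 11.64 to 12.16 in control sham, 11.81 to 12.09 in control STZ, 11.47 to 11.77 in low protein sham and 11.13 to 11.67 in low protein STZ arrays. RNA integrity, as the 3′ minus 5′ signal of Gapdh and Actb, was 1.496 to 1.83, 1.08 to 1.93, 1.22 to 1.64 and 1.40 to 1.91 in the same order. The part of array spread and hybridisation in the diet difference was not tested.

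**Figure D3:**
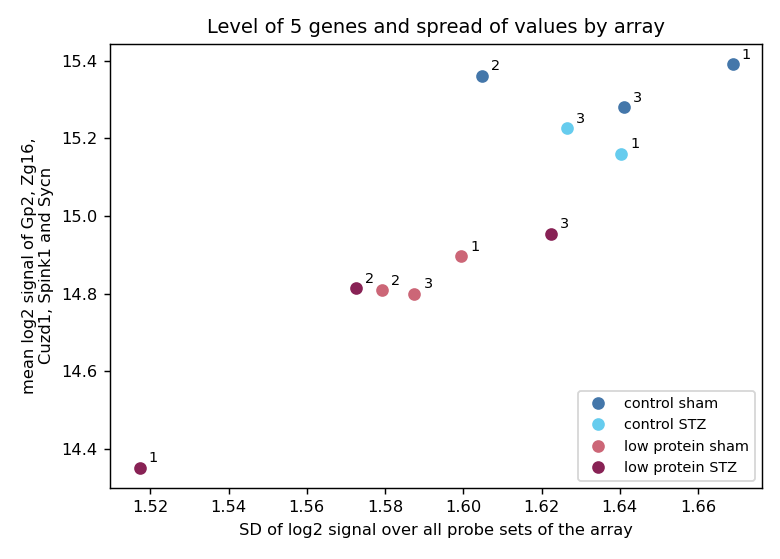
Mean log2 signal of Gp2, Zg16, Cuzd1, Spink1 and Sycn (vertical axis) against the SD of log2 signal over all probe sets (horizontal axis), 1 point per array, coloured by group and numbered by replicate. Low protein STZ 1 sits at the lower left, at 14.35 and 1.52, and control sham 1 at the upper right, at 15.39 and 1.67.

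Scaling between arrays made these differences smaller or turned them: of the 6 genes in sham animals, cyclic loess turned 4 and quantile scaling turned Rab3d alone. With cyclic loess, which bends each array onto the others along the range of signal, the diet difference in sham animals was 0.09 ± 0.14 for Gp2, 0.15 ± 0.16 for Zg16, 0.19 ± 0.17 for Sycn and 0.05 ± 0.11 for Rab3d. Cuzd1 at -0.02 ± 0.11 and Spink1 at -0.07 ± 0.12 stayed below 0. No member was lower without overlap after this scaling, where the share of all genes was not counted. The median of the 62 brightest genes moved with the members, from -0.44 to 0.17. Quantile scaling, added after the data had been seen, gave -0.11 ± 0.08 for Gp2, -0.04 ± 0.07 for Zg16, -0.15 ± 0.08 for Cuzd1, -0.07 ± 0.08 for Spink1, -0.01 ± 0.06 for Sycn and 0.08 ± 0.11 for Rab3d. There 3 of 6 members were lower without overlap, and the median of the brightest genes was -0.01. The share of all genes without overlap was not counted after quantile scaling, so the 3 have no background to be read against. Of all genes with an unadjusted p under 0.05 for diet in sham animals, 69.3% were lower in the deposited values, 52.5% after cyclic loess and 43.3% after quantile scaling.

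**Figure D4:**
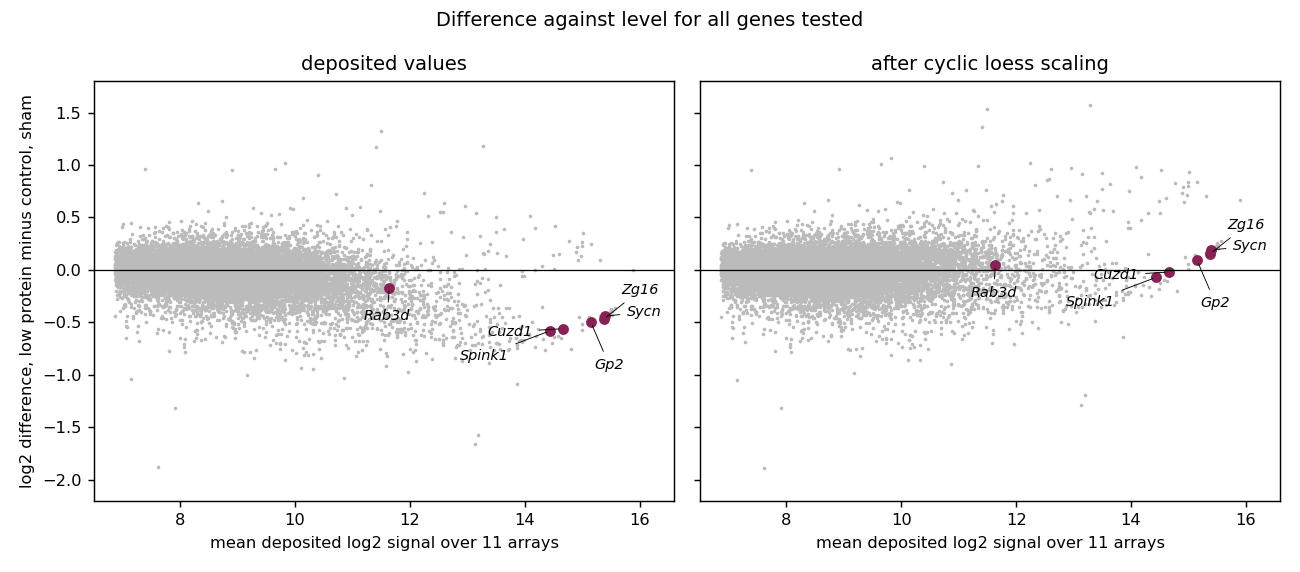
Log2 difference of low protein from control sham arrays (vertical axis) against the mean deposited log2 signal over 11 arrays (horizontal axis), for the 15897 genes tested (grey) and the 6 members (purple). In the deposited values (left) genes above 12 lie mostly below 0, and the members other than Rab3d lie among them. After cyclic loess scaling (right) the 6 members lie between -0.07 and 0.19.

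Other granule proteins were read from a list. Of 30 listed cargo and membrane proteins, 25 were tested, and 0 passed in either direction in each contrast. In low protein sham arrays 24 of the 25 were lower, where 57.7% of all genes were, with a median of -0.43 against -0.02 over all genes. Without overlap 21 were lower, against 10.2% of all genes and 67.7% of the 62 brightest. After cyclic loess scaling 6 of the 25 were lower, with a median of 0.17, and after quantile scaling 17, with a median of -0.0089. Prss3, a trypsinogen, differed by -0.75 ± 0.16 (adjusted p = 0.209). Klk1, a kallikrein, was at -0.45 ± 0.12, Ctrc, the chymotrypsin that degrades trypsinogen, at -0.44 ± 0.11, and Cpb1, a carboxypeptidase, at -0.46 ± 0.11. After cyclic loess scaling Klk1 (0.14), Ctrc (0.18) and Cpb1 (0.15) turned positive and Prss3 (-0.20) did not. Dmbt1, the muclin protein of the granule membrane and a relative of Cuzd1 through its CUB and zona pellucida domains, differed by -0.45 ± 0.17, and by 0.12 ± 0.13 after cyclic loess scaling. Of the 5 tested genes listed beside GP2 and ZG16, Dmbt1 was the bright one. Umod (-0.11 ± 0.11), the lectin gene Itln1 (0.08 ± 0.07) and Tectb (0.03 ± 0.12) lay near the array medians. Zg16b had no probe set of its own, so this relative of ZG16 was not tested. The other SPINK inhibitors Spink2 (0.18 ± 0.08), Spink4 (0.09 ± 0.07) and Spink8 (0.04 ± 0.07) had positive differences and were dim, between 7.25 and 8.38 on average.

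The machinery that works with RAB3D was measured at moderate signal. Of 24 tested Rab proteins and effectors, 20 were lower in low protein sham arrays (median -0.12), 15 after cyclic loess and 14 after quantile scaling, and 0 passed. Rab26, a granule GTPase, differed by -0.14 ± 0.07, Rab11a, of recycling endosomes, by -0.52 ± 0.17, Rap1b by -0.57 ± 0.14 and Gdi2, which extracts Rab proteins from membranes, by -0.62 ± 0.17. Of 20 tested SNAREs and partners, 15 were lower (median -0.11), 12 after cyclic loess and 11 after quantile scaling, and 0 passed. Vamp3, a vesicle SNARE, was at -0.68 ± 0.09 in sham animals (adjusted p = 0.206) and at -0.11 ± 0.10 in STZ animals, with an interaction of 0.56 ± 0.14 (adjusted p = 1). Vamp8, the main vesicle SNARE of zymogen granules, was at -0.08 ± 0.12 in sham animals, where cyclic loess (0.15) and quantile scaling (0.21) turned it, and at -0.50 ± 0.13 in STZ animals. Stx7 differed by -0.25 ± 0.09 and Vamp2 by -0.20 ± 0.12. Of 16 tested genes of secretagogue signalling, 7 were lower in low protein sham arrays (median 0.01) and 0 passed, with Rgs2 at -0.04 ± 0.14, Orai1 at -0.18 ± 0.11, Gna11 at -0.08 ± 0.12 (0.058 after cyclic loess and 0.090 after quantile scaling) and Plcb1 at 0.08 ± 0.09.

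The Rab3d probe sets did not give one answer. For diet in sham animals 1449259_at gave -0.17 ± 0.19, 1418890_a_at -0.11 ± 0.22, 1418891_a_at -0.13 ± 0.17 and 1449260_at 0.02 ± 0.11. For diet in STZ animals they gave -0.23 ± 0.21, -0.30 ± 0.25, -0.32 ± 0.19 and 0.15 ± 0.13. The first 3 averaged 11.64, 11.41 and 10.98 and were lowest on low protein STZ 1. The fourth averaged 8.37, had its lowest array in low protein sham 2 and its highest, 8.70, in low protein STZ 3. None passed over the 34958 probe sets with 1 symbol. Control sham 2 read 10.99 on 1418890_a_at against 11.99 and 11.64 on the other control sham arrays.

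**Figure D5:**
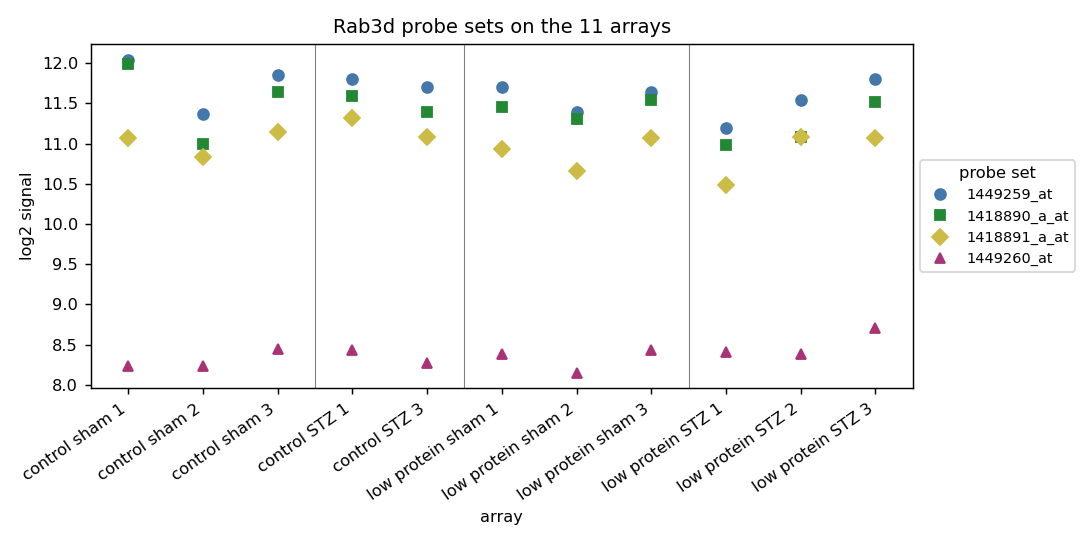
Log2 signal (vertical axis) of the 4 Rab3d probe sets on each of the 11 arrays (horizontal axis), with grey lines between the groups. The 3 brighter probe sets dip on low protein STZ 1, to 11.20, 10.98 and 10.49, and 1449260_at stays between 8.15 and 8.70.

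The genes with the most similar profile over the 11 arrays were themselves acinar products for most members. As a description with no test, Pearson r with Gp2 was 0.998 for Cel, the carboxyl ester lipase, 0.998 for Cpa1, a carboxypeptidase, and 0.997 for the chymotrypsin-like Ctrl. Zg16 was nearest to the elastases Cela1 (0.9996), Cela2a (0.999) and Cela3b (0.999), and Sycn to Ctrb1 (0.999), Zg16 (0.998) and Cela2a (0.998). Cuzd1 was nearest to P4hb (0.987), which encodes protein disulfide isomerase, Cel (0.985) and Gp2 (0.985). Spink1 was nearest to the ribosomal protein genes Rps10 (0.992) and Rps29 (0.988) and to Pla2g1b (0.984), the pancreatic phospholipase. These genes averaged over 14, apart from Rps10 at 13.91, so the arrays' shared behaviour at high signal enters each r. Rab3d was nearest to Irak1 (0.974), Nab1 (0.969) and Prps2 (0.966), which averaged 10.48 to 10.64.

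Markers of other cell types were read beside the diet difference in sham animals. Acinar markers were lower in 9 of 9 tested genes, with summed linear signal of 229204 to 243417 in control sham and 176897 to 180112 in low protein sham arrays. β-cell markers were lower in 4 of 5, with sums of 50347 to 69886 and 14933 to 36873. Stroma and endothelium markers were lower in 8 of 8, with sums of 11326 to 19880 and 8373 to 11516. Duct markers (2 of 5 lower) summed to 4933 to 7256 and 5456 to 5940, and B and T cell markers (3 of 7 lower) to 1898 to 2149 and 2126 to 2210. Adipocyte markers rested on 2 genes (1 of 2 lower, with Adipoq, Cidec and Pck1 too dim) and summed to 1833 to 2478 and 1117 to 1825, with Fabp4 at -0.69 ± 0.20. After cyclic loess scaling 5 of 9 acinar markers were lower, against 4 of 5 β-cell and 8 of 8 stroma and endothelium markers. After quantile scaling 7 of 9 acinar markers were lower, and the other 2 counts were the same. The acinar median was -0.39 in the deposited values, -0.019 after cyclic loess and -0.018 after quantile scaling. The part of these cell types in the difference was not tested.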

How the data were processed

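The authors' deposited values are log2 signals per probe set of whole pancreas RNA on 11 arrays. The submitters' processing notes list RMA and Partek 6.5 without role or order, and the genome build is not given in the sources used here. Probe sets were named from the platform's annotation: 34958 carried 1 symbol, 932 several and 9211 none, the last 2 kinds being left out. The brightest probe set on average stood for each gene. Of 18194 genes, 2297 averaged no more than 6.87 (the 0.25 quantile over probe sets) and were left out as dim.

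In R 4.3.3, limma 3.58.1 fitted 1 model with 4 group means to the 15897 remaining genes (two-sided moderated tests, Benjamini-Hochberg, threshold 0.05), and likewise across all 34958 probe sets for further probe sets. The fit was tested on simulated data. The 4 pairwise contrasts share groups and are not independent. Nothing says that arrays come from separate litters, so p-values measure the spread between these arrays, whose number limits the precision.

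The members, gene lists and motifs were chosen with earlier results of these data known. Genes named were the members, up to 4 per list by the F-test, and the 3 nearest profiles per member. Alternatives were every probe set, the mean of a gene's probe sets, no dim filter, cyclic loess, a replicate block, array weights, trend and robust moderation, only the groups compared, an RNA integrity covariate and each array left out. Quantile scaling and leaving out control sham 1 and low protein STZ 1 together, and both scalings for the gene lists, were added after seeing the data. Promoters were searched with Python 3.11.15. Replicate numbers gave no clear pairing of the arrays. Of 15 pairs of arrays with the same number, 5 had deviations correlated above 0.1, against 8 of 30 pairs with different numbers.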

Additional observations from a re-analysis of the deposited data

How the results depend on the processing

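Cyclic loess scaling turned signs. Positive log2 differences for diet were Gp2 (0.089), Zg16 (0.15), Sycn (0.19) and Rab3d (0.049) in sham animals, Gp2 (0.30), Zg16 (0.36), Cuzd1 (0.11), Spink1 (0.053), Sycn (0.38) and Rab3d (0.083) in STZ animals, and Gp2 (0.19), Zg16 (0.25), Cuzd1 (0.045), Sycn (0.28) and Rab3d (0.066) averaged. Positive differences for STZ were Spink1 (0.0057) and Rab3d (0.019) in the control diet, Gp2 (0.13), Zg16 (0.16), Cuzd1 (0.067), Spink1 (0.12), Sycn (0.16) and Rab3d (0.053) in the low protein diet, and Gp2 (0.022), Zg16 (0.057), Cuzd1 (0.0034), Spink1 (0.065), Sycn (0.064) and Rab3d (0.036) averaged. The interaction turned for Cuzd1 (0.13), Spink1 (0.12) and Rab3d (0.034). Members lower without overlap numbered 0 in both diet contrasts and for STZ in the control diet, with the share of all genes not counted. The cause was not tested. Quantile scaling turned Rab3d (0.078) for diet in sham animals, Rab3d (0.081) in STZ animals and Rab3d (0.079) averaged. For STZ it turned Spink1 (0.050), Sycn (0.0023) and Rab3d (0.0008) in the control diet, Rab3d (0.0045) in the low protein diet, and Spink1 (0.018) and Rab3d (0.0026) averaged. Its interaction turned for Gp2 (-0.028), Zg16 (-0.058), Cuzd1 (0.0058), Sycn (-0.033) and Rab3d (0.0037). It left 3 members without overlap for diet in sham animals, 3 in STZ animals and 1 for STZ in the control diet. The share of all genes without overlap was not counted after this scaling. Quantile scaling called 1, 59 and 1 genes for diet in sham animals, diet averaged and the F-test. Array weights called 7 genes for diet in sham animals, and 796 genes and 5 members averaged, and turned Spink1 (0.021) for STZ in the low protein diet and Spink1 (0.047) in the interaction. The RNA integrity covariate turned the interaction of Sycn (-0.0003) and Rab3d (0.026). The mean of a gene's probe sets turned Rab3d (0.044) for STZ in the control diet and Rab3d (0.0056) averaged. The replicate block called 0 genes and changed no call, and turned the interaction of Cuzd1 (0.0040) and Rab3d (0.029).

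Without control sham 1 and low protein STZ 1 together, 56 genes and 1 member passed for diet in sham animals, and 86 genes and 3 members averaged. STZ differences turned for Gp2 (0.046), Zg16 (0.047), Cuzd1 (0.033), Spink1 (0.083), Sycn (0.037) and Rab3d (0.099) in the low protein diet, Rab3d (0.15) in the control diet and Spink1 (0.027) and Rab3d (0.12) averaged, and the interaction for Cuzd1 (0.16) and Spink1 (0.11). With each array left out in turn, genes called ran from 0 to 126 for diet in sham animals, 0 to 460 averaged, 0 to 1 for diet in STZ animals, 0 to 1 for STZ in the control diet and 0 to 6 in the F-test. Members called ran from 0 to 5 for diet in sham animals and averaged. Members lower without overlap ran from 0 to 2 for STZ in the low protein diet, with the share of all genes not counted. For STZ in the low protein diet the differences ran for Gp2 from -0.28 to 0.046, Zg16 from -0.21 to 0.047, Cuzd1 from -0.36 to 0.033, Spink1 from -0.21 to 0.083, Sycn from -0.20 to 0.037 and Rab3d from -0.21 to 0.099. For STZ in the control diet they ran for Rab3d from -0.20 to 0.15, and averaged for Rab3d from -0.13 to 0.049. The interaction ran for Gp2 from -0.085 to 0.24, Zg16 from -0.042 to 0.21, Cuzd1 from -0.20 to 0.19, Spink1 from -0.12 to 0.17, Sycn from -0.051 to 0.19 and Rab3d from -0.21 to 0.13. Each of the 5 bright members kept a negative diet difference with any 1 array left out. Values near the top of the scale and the small number of arrays limit what these contrasts can resolve.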

Other observations

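In the deposited values not every bright gene was lower in the offspring of protein-restricted dams. Of the 62 genes averaging over 14, 45 were lower in low protein sham arrays. Their median difference was -0.44, against 0.17 after cyclic loess and -0.01 after quantile scaling. The values that follow are from the deposited scale. Sf1, a splicing factor gene with a mean of 15.89, differed by -0.0009 ± 0.06. This mean lies at the top of the scale, where the highest value per array was 15.85 to 15.91. Its small difference therefore cannot show whether Sf1 RNA changed. Pik3cd, with a mean of 15.01, differed by 0.35 ± 0.07. Laptm5, a lysosomal gene of blood cells with a mean of 14.09, differed by 0.51 ± 0.10, and Samhd1 by 0.40 ± 0.11. These genes were chosen after their values were seen, and none passed the test. Laptm5 read far above the B and T cell markers, which averaged 8.02 to 8.20 in control sham arrays. Whether its probe set reads Laptm5 alone was not tested.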
